A study of Mus musculus with 2 samples.

Results

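Short intervals between adjacent chromatin boundaries were examined in mouse olfactory sensory neurons. A boundary is a position that separates neighbouring stretches of chromosome, each of which makes more contacts within itself than with the other. In the deposited boundary list the autosomal boundaries were sorted by chromosome and start, and an interval was taken as short when the midpoints of 2 adjacent boundaries lay 120 kb or less apart. Of 7016 autosomal intervals, 353 were short (5.03%), and these are the members described here. The remaining intervals, 6451 longer than 120 kb up to 1 Mb (mid-length intervals below) and 212 over 1 Mb, serve for comparison. The members were selected on the called boundary positions, so their lengths, scores and classes are given as a description, with no test.

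The mice were adult, of mixed sex and of the MOR23-GFP line, in which a green fluorescent reporter marks neurons that express Olfr16 (MOR23), an odorant receptor gene. Mature neurons were sorted from their olfactory epithelium by flow cytometry, with no treatment and with the strain listed as not specified. In situ Hi-C, which ligates and sequences DNA ends lying close together in the nucleus, was run with DpnII on 28000 cells for replicate 1 and 24400 cells for replicate 2, fixed in 1% formaldehyde. Both replicates belong to 1 group and were merged before boundary calling on GRCm38, so no boundary has a value per replicate. How many animals were pooled is not given in the sources used here, and the sorted cell type could not be checked against its markers, because no expression values were used here. The depth per boundary and the spread between replicates are unknown, and the exact 95% ranges printed with shares and densities cover counting error only.

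Boundaries in mammalian chromosomes commonly form where the DNA-binding protein CTCF stops the ring-shaped cohesin complex as it extrudes a loop of chromatin. A loop is usually held between CTCF sites whose motifs point toward each other. Boundaries also lie at promoters of active genes, particularly housekeeping genes, with or without a CTCF site. In olfactory sensory neurons, chromosome folding has a further role, because olfactory receptor gene clusters from many chromosomes gather together and a single receptor gene is chosen for expression.

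Sequences matching the 12-base CTCF consensus show how the flanks of some short intervals were arranged. Only 38 of the 353 had a match within 10 kb of both flanks. The consensus was searched on both strands and no other motif was searched, so no overlap between motifs arises. In the list below, 30 bases of the strand that carries the match are printed 5′ to 3′ from GRCm38, with the match in capitals. The pairs show the outward-pointing (divergent), inward-pointing (convergent) and same-direction (tandem) arrangements at flanks of 5 short intervals. They are examples and do not follow the share of each arrangement, which is given further on. A match is a letter pattern and not a measured binding site.
Zdhhc7 interval, left flank, chr8:120071852-120071881, minus strand: cacatacagCCACCAGAGGGCggggttcaa
Zdhhc7 interval, right flank, chr8:120179063-120179092, plus strand: agcctgtgaCCACCAGAGGGCgacagagac
Mrpl19 interval, left flank, chr6:81872479-81872508, minus strand: tagctagacCCACTAGAGGGCacagggaca
Mrpl19 interval, right flank, chr6:81976138-81976167, plus strand: cagagatgaCCAGCAGGTGGCaccacccac
Pck1 interval, left flank, chr2:173089649-173089678, minus strand: atctagtgcCCACCAGAGGGCaggcgtcaa
Pck1 interval, right flank, chr2:173219851-173219880, plus strand: gaaaactgaCCACTAGGTGGCgcatgctca
Krt8 and Krt18 interval, left flank, chr15:101977160-101977189, plus strand: tggccctaaCCAGCAGGTGGCgtgggtaca
Krt8 and Krt18 interval, right flank, chr15:102065813-102065842, minus strand: gctagaaggCCACCAGGGGGCagagaaggg
Frmd4b interval, left flank, chr6:97420249-97420278, plus strand: ccatttcatCCAGCAGAGGGCagaccatca
Frmd4b interval, right flank, chr6:97520748-97520777, plus strand: aagcaactaCCAGTAGAGGGCagcactaga

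The Zdhhc7, Mrpl19 and Pck1 pairs are divergent, the keratin pair is convergent and the Frmd4b pair is tandem. The Zdhhc7 matches lie 0.64 kb and 3.43 kb to the left of their boundary midpoints, in introns of the listed gene model Gm20388. The Frmd4b matches lie in introns of Frmd4b, and the other 6 are intergenic.

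Short intervals covered 37.4 Mb, or 1.57% of the 2388 Mb lying between autosomal boundaries, and 682 of 7035 autosomal boundaries flanked one or more of them (9.69%). Their lengths ran from 50 to 120 kb, with a median of 110 kb and quartiles at 95 and 115 kb. Most lay close to the limit: 82 were 120 kb long, 65 were 115 kb and 56 were 110 kb. At the other end, the lengths 50, 55, 60 and 65 kb each occurred once, and 70 kb occurred 5 times.

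**Figure D1:**
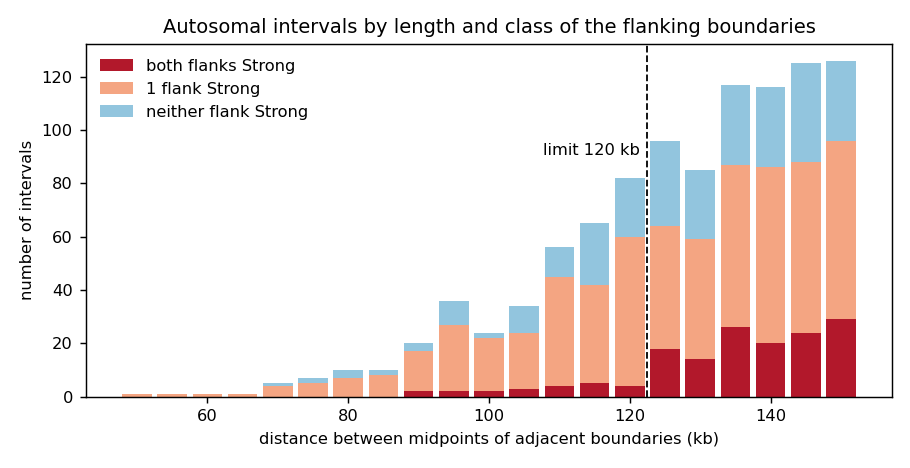
Number of autosomal intervals (vertical axis) by distance between adjacent boundary midpoints in kb (horizontal axis), with bars split by how many flanks the authors classed as Strong and a dashed line at the 120 kb limit. Counts climb toward the limit, to 82 intervals at 120 kb, and both-Strong intervals form a thin part of each bar at or below it.

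The authors gave each boundary a score and a class. In the list every Strong boundary scored at least 0.50, every Weak one less, and none under 0.20. Both flanks were Strong in 22 short intervals (6.23%, 3.95 to 9.28%), where all autosomal intervals had 28.5%. In 243 short intervals 1 flank was Strong (68.8%, 63.7 to 73.6%), against 49.1% of all autosomal intervals. In 88 neither was (24.9%, 20.5 to 29.8%), near the 22.4% of all autosomal intervals. Most short intervals thus had 1 Strong and 1 Weak end. The median of the lower flank score was 0.276 (0.262 to 0.285), against 0.348 in mid-length intervals. The median of the higher flank score was 0.785 (0.735 to 0.869), against 0.919. Short intervals had the smaller both-Strong share and the lower median of the lower score on all 19 autosomes. The left flank had the higher score in 199 of 353 (56.4%), a count with no share of other intervals beside it and not tested.

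At the limit itself, the 147 intervals just inside it, over 110 kb, included 9 with both flanks Strong (6.12%), a median lower score of 0.282 and a median higher score of 0.711. Just beyond it, the 181 intervals up to 130 kb included 32 with both flanks Strong (17.7%), with medians of 0.289 and 0.744. High scores did occur at short intervals, since 21 of them had a flank above 2. No share of other intervals is set beside this count. The upper quartile of the higher score was 1.19 in short intervals and 1.38 in mid-length ones. The highest flank score of a short interval, 4.38, was the right flank of chr1:88212501-88307500, whose left flank scored 0.299. That interval holds the starts of Mroh2a, Hjurp and Trpm8; Hjurp is the chaperone of the centromeric histone and Trpm8 the cold and menthol channel.

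**Figure D2:**
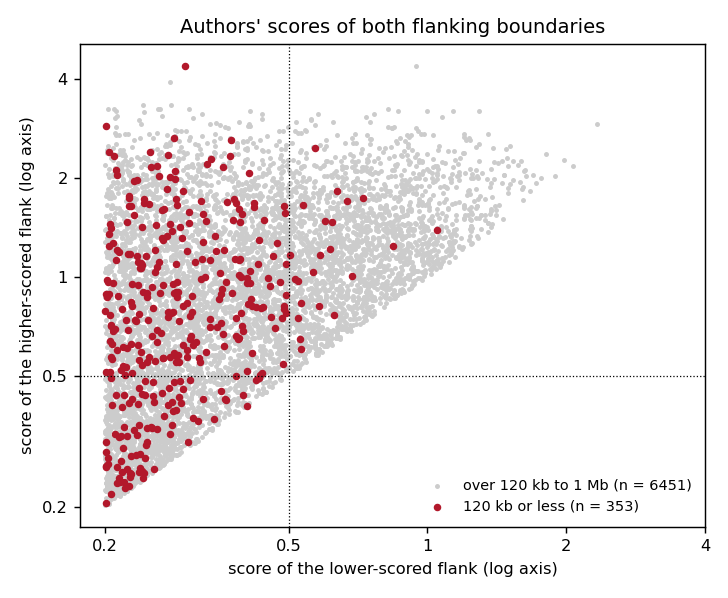
Score of the lower-scored flank (horizontal, log axis) against score of the higher-scored flank (vertical, log axis) for each short interval and, in grey, for each of the 6451 mid-length intervals, with dotted lines at 0.5, the border between Weak and Strong. Most short intervals lie left of the vertical line and above the horizontal one, and 22 lie right of the one and above the other.

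Short intervals were dense in protein-coding genes. They held 855 gene starts (the 5′ end, 1 per gene), or 22.8 per Mb (21.3 to 24.4), against 9.09 per Mb (8.96 to 9.22) in mid-length intervals and 3.52 per Mb in those over 1 Mb. The first ratio was 2.51. These 855 starts were 4.11% of the 20807 autosomal coding genes. Among the short intervals density was highest in the shortest, 32.9 per Mb at 90 kb or less, 24.7 over 90 and under 110 kb, and 20.1 at 110 to 120 kb. The decline continued beyond the limit, with 15.3 per Mb up to 200 kb, 11.3 over 200 and up to 400 kb, and 4.72 over 400 kb and up to 1 Mb. The narrow classes beside the limit read 19.3 per Mb over 110 and up to 120 kb and 14.1 over 120 and up to 130 kb.

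Because every base of a short interval is near a boundary, the outer 60 kb at each end of intervals over 240 kb were measured as well. They held 9.42 starts per Mb and the inner parts 5.75, both below the density of short intervals. The surroundings of short intervals were also gene-rich. The 623 longer intervals that directly adjoin one held 12.9 starts per Mb, and the 223 of these that were at most 200 kb long held 20.1, where short intervals of 110 to 120 kb had 20.1. Mid-length intervals that adjoin none held 8.65. Where both neighbours were longer, a short interval was denser than both in 132 of 306 cases (43.1%), sparser than both in 48 (15.7%) and otherwise neither. For mid-length intervals of at most 200 kb placed between longer neighbours, 313 of 765 were denser than both (40.9%).

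**Figure D3:**
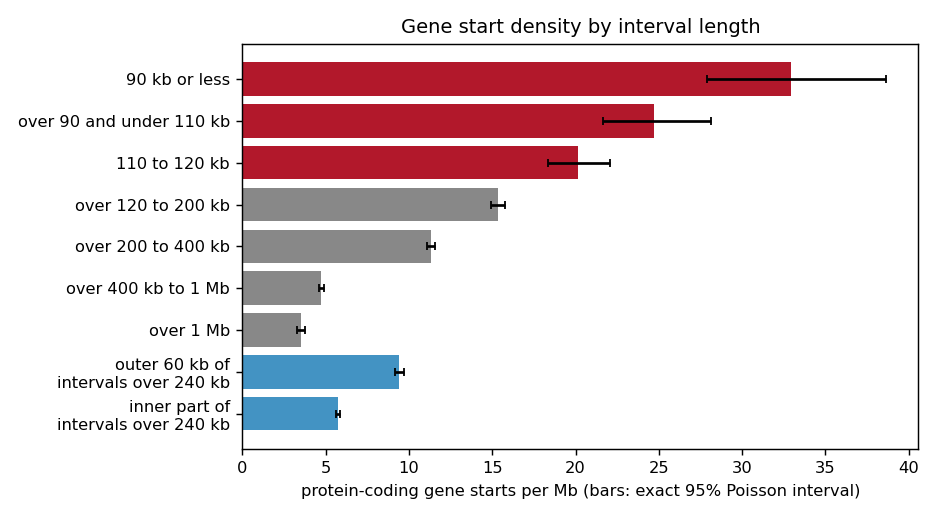
Protein-coding gene starts per Mb (horizontal axis) by interval length class, with short intervals in red, longer ones in grey and the outer 60 kb and inner parts of intervals over 240 kb in blue; bars carry exact 95% Poisson intervals. Density falls from 32.9 at 90 kb or less to 20.1 at 110 to 120 kb and on to 4.72 over 400 kb and up to 1 Mb.

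At least 1 coding start lay in 289 short intervals (81.9%, 77.4 to 85.7%), where 44.0% of autosomal tiles of 110 kb, the median short length, held one. A whole coding gene fitted in 255 (72.2%; tiles 31.2%). Intervals over 120 and up to 200 kb, the class next in length, had 79.2% and 68.2%, much nearer to short ones than tiles were. The median was 2 starts and the maximum 13, and 79 intervals held exactly 1. At least 5 starts lay in 52 intervals (14.7%; tiles 3.91%), which together held 339. That share was 17.1% in intervals over 120 and up to 200 kb. At the opposite end, 64 held no coding start, and 33 had no annotated gene start of any kind (9.35%; tiles 24.8%). Those 33 had a median GC content of 39.1% (35.8 to 51.4%), and the 52 gene-rich ones 49.2%. Coding density also differed by flank class: 33.6 starts per Mb with both flanks Strong, 23.6 with 1 and 18 with neither. All 22 both-Strong intervals held a coding start, as did 88.1% of those with 1 Strong flank and 60.2% of those with none.

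The coding genes starting in short intervals had a median length of 15.6 kb (quartiles 6.49 and 31.4), against 18.4 kb (7.02 and 47.6) in mid-length intervals. Genes over 100 kb made up 30 of the 855 (3.51%), against 11.8%. In all, 689 lay wholly inside their interval (80.6%) and 166 crossed a flanking midpoint. Head-to-head genes, those starting within 1000 bases of a gene on the opposite strand, were 8.19% of the starts (6.44 to 10.2%), near the 7.22% of longer intervals. Short intervals were 45.2% GC against 42.3%, higher on 18 of 19 autosomes. They carried 11.7 CG pairs per kb against 8.80, and 30.2% of their sequence was repeats against 32.6%. No short interval contained an assembly gap.

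Short intervals occurred on every autosome, from 3.16% of the intervals of chromosome 13 to 6.88% on chromosome 8. Their coding density was higher than that of other intervals on 19 of 19 autosomes, with a ratio from 1.70 on chromosome 7 to 4.67 on chromosome 15 and a median of 2.48. Averaged over autosomes it was 22.7 ± 7.49 starts per Mb (SD, n = 19 chromosomes) against 9.20 ± 2.74. Along the chromosomes they lay a little more distally, at a median of 60.8% of chromosome length against 52.9%. Within 10 Mb of the distal end lay 43 of them (12.2%; mid-length intervals 8.03%), and within 20 Mb of the proximal, centromeric end lay 28 (7.93%; 12.1%).

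**Figure D4:**
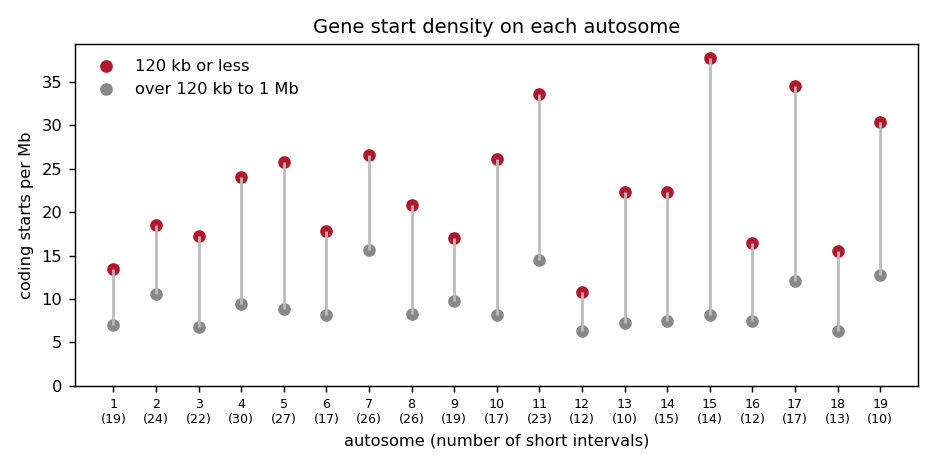
Protein-coding gene starts per Mb (vertical axis) for each of 19 autosomes (horizontal axis), in short intervals and in mid-length intervals, joined by a grey line. The short-interval point is the higher on every autosome, with ratios from 1.70 on chromosome 7 to 4.67 on chromosome 15.

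Turning to single members, the shortest interval was chr6:86357501-86407500, 50 kb long. Its left flank, intergenic, scored 1.64 and its right flank, in exonic sequence of Tia1, scored 0.228. Between them start Snrpg, a core protein of the spliceosome, Pcyox1, a prenylcysteine oxidase, Tia1, an RNA-binding protein of stress granules, and Fam136a. The next, chr14:31202501-31257500 (55 kb; 0.219 and 0.538), holds Tnnc1, the troponin C of heart and slow muscle, Nisch, the semaphorin gene Sema3g, the PHD-finger gene Phf7 and Bap1, a nuclear deubiquitinase. The interval of 60 kb, chr17:72777501-72837500, has a single coding start, that of Ypel5, at a Weak flank scoring 0.204, opposite a flank scoring 2.40. The interval of 65 kb, chr7:65642501-65707500 (1.46 and 0.392), holds Tarsl2, a threonyl-tRNA synthetase gene that fills 72.6% of it, and Tm2d3.

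The 5 intervals of 70 kb differed in what they contain. chr15:76652501-76722500 (0.256 and 0.557) packs 9 starts, among them Foxh1, a transcription factor of Nodal signalling, Gpt, an alanine aminotransferase, and Recql4, a DNA helicase. chr16:23077501-23147500 (0.887 and 0.201) holds Eif4a2, a helicase of translation initiation, Rfc4, a subunit of the replication clamp loader, and Adipoq, the hormone adiponectin, among 12 gene starts of all kinds. chr5:136197501-136267500 (0.378 and 0.893) holds Prkrip1 and Sh2b2. The remaining 2 each hold 1 coding start, Plxna1 and Umodl1, which are described with the olfactory genes. Of the 75 kb intervals, chr9:66972501-67047500 (1.13 and 0.390) holds the start of Lactb. Of these 10 shortest intervals, the Umodl1 interval had 2 Weak flanks and every other had 1 Strong and 1 Weak flank.

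The interval with most starts was a part of the histone cluster on chromosome 13, chr13:23692501-23772500. Its 13 starts are 11 histone genes of the Hist1 cluster, Hfe, an iron-uptake regulator, and Trim38, whose exonic sequence holds the right flank. The left flank scored 0.212 and the right 2.12. On chromosome 17, 2 intervals had 11 starts each. chr17:34552501-34667500 (1.47 and 0.620, both Strong) runs from Notch4 to Atf6b and includes Ager, the receptor for glycation end products, and Pbx2. chr17:35812501-35922500 (1.32 and 0.266) includes Tubb5, a tubulin, Mdc1, a DNA damage mediator, and Atat1, a tubulin acetyltransferase. chr7:140802501-140912500 (1.68 and 0.385) has 10, among them Sirt3, a mitochondrial deacetylase, and Psmd13, a proteasome subunit. chr11:69037501-69132500 (0.529 and 0.647) has 8, with Aurkb, a mitotic kinase, Vamp2, of the synaptic vesicle, and Per1, of the circadian clock. It also holds 16 of the 29 transfer RNA genes found in short intervals, out of 391 on autosomes (7.42%). chr11:101197501-101317500 (0.552 and 0.289) also has 8, with Ezh1, a histone H3 methyltransferase, and Becn1, of autophagy.

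Some of these genes start head to head across a short gap. There were 35 head-to-head pairs with both starts in 1 short interval, at a median gap of 138 bases, and 23 had a gap of 250 bases or less. No gaps of other intervals are set beside these, so they do not mark a trait of short ones. The gaps below, printed on the plus strand with CG pairs in capitals, are shown because they lie between the starts of both genes and belong to members named here. They are credited to the GRCm38 reference of RefSeq.
Phf7 and Bap1, chr14:31251318-31251449: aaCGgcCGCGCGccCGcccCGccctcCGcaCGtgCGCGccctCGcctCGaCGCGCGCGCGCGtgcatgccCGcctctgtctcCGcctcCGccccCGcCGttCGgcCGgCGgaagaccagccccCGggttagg
Recql4 and Lrrc14, chr15:76710549-76710622: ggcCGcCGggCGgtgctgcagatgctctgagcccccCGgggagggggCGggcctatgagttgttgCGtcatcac
Mrps18b and Ppp1r10, chr17:35916390-35916433: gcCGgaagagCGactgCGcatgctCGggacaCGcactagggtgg
Cfap57 and Ebna1bp2, chr4:118620778-118620798: cctatagcaaCGagaaaacCG

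The gap between Phf7 and Bap1 holds 27 CG pairs in 132 bases and is 81.1% GC. It ends 6.05 kb from the right boundary midpoint. The gap of Mrps18b and Ppp1r10 ends 6.07 kb from its right midpoint and that of Cfap57 and Ebna1bp2 6.70 kb. The gap of Recql4 and Lrrc14 lies farther in, 11.9 kb from its right midpoint.

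Both flanks were strongest, by the lower score, at chr2:93377501-93497500 (1.05 and 1.39), whose 1 coding gene is Cd82, a tetraspanin membrane protein. Second was chr8:120072501-120182500 (1.24 and 0.841), the interval of the divergent pair printed first, with Zdhhc7, a palmitoyltransferase, 6430548M08Rik and Fam92b. It was followed by chr11:115052501-115157500 (1.74 and 0.726), with Rab37 and the immune receptor genes Cd300e and Cd300lf, and chr12:112047501-112162500 (1.01 and 0.687), with Aspg and Kif26a, a kinesin. chr9:15257501-15372500 (0.670 and 1.70) holds Med17, of the Mediator complex, Taf1d, of RNA polymerase I transcription, and Cep295. chr7:6102501-6202500 (1.83 and 0.635) holds Zfp787, Zfp444 and Galp, and chr18:60697501-60787500 (0.627 and 0.764) holds Rps14, of the small ribosomal subunit, and Ndst1, an enzyme of heparan sulfate synthesis.

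Short intervals adjoined each other in 45 cases (12.7%, 9.45 to 16.7%) and stood alone in 308. With 5.03% of all autosomal intervals short, some adjoin without any clustering, and whether these did so more often was not tested. The 45 formed 18 runs of 2 and 3 runs of 3, and held 31.3 coding starts per Mb. On chromosome 8 a run from 94702501 to 95047500 had scores of 1.00, 0.394, 0.778 and 0.493 from left to right. Its first interval holds the chemokine genes Ccl22, Cx3cl1 and Ccl17. The second holds Polr2c, of RNA polymerase II, with Coq9, Ciapin1, Dok4, Ccdc102a and Adgrg5, and the last the adhesion receptor genes Adgrg1 and Adgrg3. Adgrg5, by its symbol, belongs with those 2, and the boundary between the second and last intervals lies in an Adgrg5 intron. On chromosome 2 a run from 168642501 to 168967500 scored 0.661, 0.253, 0.243 and 1.72, with 1 coding start in each interval, of Atp9a, of Sall4, a stem cell transcription factor, and of Zfp64. In that run the inner boundaries were the lowest.

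In 26 short intervals (7.37%, 4.87 to 10.6%) 1 wholly contained gene filled at least 60% of the length. Mid-length intervals had 6.06%, and those of at most 200 kb 6.62%, both within the counting interval of the short ones. Such filling therefore does not mark a trait of short intervals, and the genes below are named as examples. Anapc1, a subunit of the anaphase-promoting complex, filled 90.9% of chr2:128607501-128692500 (1.18 and 0.225), and Xpo6, a nuclear exporter of actin, filled 89.8% of chr7:126092501-126202500 (1.27 and 0.209). Cdkl3 filled 85.6%, Cfap57 82.8%, Umodl1 80.1%, Fgf1 79.0%, Art3 78.9% and Mcm9 78.4% of theirs. In the Art3 interval, chr5:92312501-92417500 (0.257 and 1.03), the chemokine genes Cxcl9 and Cxcl10 start as well.

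The reverse case, an interval lying within 1 coding gene, occurred 16 times (4.53%, 2.61 to 7.26%). The share was 14.3% of tiles, but 3.63% of mid-length intervals and 4.57% of those of at most 200 kb, near that of short ones. In 4 of the 16 the gene was Gm20388, a model listed at 4435 kb that spans many other genes. In 1 it was an Fgfr2 model listed at 2961 kb. Without these 2 models, an exclusion chosen after seeing the data, the share of short intervals was 3.12%. In 10 of the 16 no other coding gene started. The long neuronal genes Gabrg3, a subunit of the GABA-A receptor (671 kb), and Fgf12 (593 kb) each hold 1 such interval in introns, with flank scores of 0.260 and 0.255 in Gabrg3 and of 0.749 and 0.386 in Fgf12. Rabgap1l (574 kb) holds chr1:160412501-160532500, whose flanks, both intronic, scored 2.34 and 0.210. Iqcm (536 kb), Arhgap26 (383 kb), Ehbp1 (336 kb) and Frmd4b (331 kb) held 1 each.

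A coding start lay within 10 kb of both flanking boundaries in 94 short intervals (26.6%, 22.1 to 31.6%; all autosomal intervals 12.2%). It lay near at least 1 flank in 225 (63.7%; mid-length intervals 44.6%). The lower-scored flank had a start nearby in 170 (48.2%) and the higher-scored one in 149 (42.2%). Only the lower-scored flank had one in 76 intervals and only the higher-scored flank in 55, a paired difference that was not tested. In mid-length intervals the shares of lower-scored and higher-scored flanks with a start nearby were 27.3% and 29.1%. Of the 682 flanking boundaries, 308 overlapped an exon of a coding gene (45.2%; other autosomal boundaries 30.4%), 70 only an intron (10.3%; 14.4%) and 304 neither (44.6%; 55.2%).

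In 42 short intervals (11.9%) both flanks lay more than 50 kb from any coding start. No share of other intervals is set beside this count, so it does not mark a trait of short ones. The 6 of the 42 with the lowest summed scores had all 12 flanks at 0.265 or below. They are chr8:75702501-75812500, in introns of Iqcm, chr3:61777501-61867500, chr4:74947501-75057500, chr6:109082501-109187500, chr13:104477501-104592500, whose left flank overlaps an exon of Adamts6, and chr9:85557501-85672500. None of the 6 holds a coding start, but the distance of both flanks from coding starts leaves little or no room for one, and the low scores are what ranked them. Their GC content ran from 37.4 to 42.7%.

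CTCF consensus matches numbered 407 inside short intervals, 10.9 per Mb against 5.39 in mid-length intervals, and 208 short intervals held at least 1 (58.9%; tiles 37.2%). Beside the limit the density hardly differed, at 9.18 per Mb over 110 and up to 120 kb and 9.15 over 120 and up to 130 kb. A match lay within 10 kb of both flanks in 38 (10.8%, 7.73 to 14.5%) and near neither in 195 (55.2%). All autosomal intervals had 7.48% and 59.5%, and those over 120 and up to 200 kb had 9.62% and 54.3%. The higher-scored flank had a match in 28.9% and the lower-scored flank in 26.6%, where mid-length intervals had 26.6% and 21.8%. Of the 407 matches, 235 pointed inward from the nearer flank (57.7%, 52.8 to 62.6%), against 64.1% (62.9 to 65.3%) of the 6122 within 60 kb of a midpoint in mid-length intervals. Among the 38 intervals with a match at both flanks, the nearest matches were divergent in 15 (39.5%, 24.0 to 56.6%), convergent in 5 (13.2%, 4.41 to 28.1%) and tandem in 18. In 481 mid-length intervals, 28.1% were divergent and 21.8% convergent, within the counting intervals of the short ones. The printed sequences of Zdhhc7, Mrpl19 and Pck1 belong to the 15 and those of the keratin interval to the 5.

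Gene families were counted by how many of their starts fell in short intervals, where all autosomal coding genes had 4.11%. The lists were drawn by gene symbol and are not whole families: they leave out Rpsa, a ribosomal protein gene, the synthetase gene Tarsl2, and zinc finger genes such as Zbtb24 and Snai3, which all start in short intervals, and they take in gene copies such as Rpl10-ps3. Of 92 genes with symbols of the Rpl and Rps series, 8 did (8.70%, 3.83 to 16.4%), including Rps14, Rpl13a and Rpl11. Mitochondrial ribosomal protein genes contributed 4 of 78, proteasome genes 3 of 49 (Psmd13, Psme3, Psma4), respiratory complex I genes 1 of 44 (Ndufs7) and listed aminoacyl-tRNA synthetase genes 2 of 36 (Iars, Nars). Solute carriers contributed 16 of 358, cytochrome P450 genes 3 of 100, genes with a numbered Zfp symbol 10 of 385, and keratins 2 of 110. Developmental transcription factors of the homeobox, Sox, Fox and related families contributed 7 of 164, and Wnt and Fgf ligands 1 of 39, Fgf1. None of 39 Hox genes and none of 57 clustered protocadherin genes, 0% in each, started in a short interval, which allows upper limits of 9.03% and 6.27%. Genes of a cluster are not independent, so these limits are too low. All 11 histone genes, of 67, lay in the 1 interval described above.

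Olfactory receptor genes in short intervals numbered 21 of 1128 (1.86%, 1.16 to 2.83%), in 8 intervals, and Olfr16 was not among them. Neighbouring receptor genes are not independent, so this range is too narrow. Vomeronasal receptor genes, the pheromone receptors, contributed 1 of 329 (0.304%). The 6 neighbouring receptor genes Olfr479 to Olfr484 are the coding genes of chr7:108037501-108157500, whose flanks are both Weak, at 0.238 and 0.263. That interval is 38.5% GC with 48.6% repeats and holds no CTCF match. By contrast Olfr70 and Olfr71 start in an interval with 2 Strong flanks, chr4:43602501-43722500 (0.531 and 0.603), and Olfr462, Olfr463 and Olfr464 in chr11:87852501-87962500 (0.441 and 1.49).

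Among 40 autosomal genes of olfactory neuron function, 6 started in short intervals (15.0%, 5.71 to 29.8%), each in its own. The signalling genes were Gnb1, a G-protein beta subunit, in chr4:155467501-155582500 (1.16 and 0.584), Cngb1, a subunit of the cyclic nucleotide-gated channel that odorants open, in chr8:95217501-95337500 (0.582 and 0.819), and Pde4a, a cyclic AMP phosphodiesterase, in chr9:21127501-21227500 (0.610 and 0.224). Cngb1 and Gnb1 thus lay between 2 Strong boundaries. Rtp2, which carries odorant receptors to the cell surface, shares chr16:23887501-23982500 (0.340 and 2.29) with Sst, the hormone somatostatin. Plxna1, a semaphorin receptor of axon guidance, lies whole in chr6:89302501-89372500 (0.237 and 0.559), filling 66.2% of it as its only coding start among 3 gene starts of all kinds. Umodl1, the olfactorin gene, is the only coding start among 5 gene starts of all kinds in chr17:30942501-31012500, whose Weak flanks (0.415 and 0.226) overlap exons of Glp1r and of Umodl1 itself. The start of Plxna1 lies 9.88 kb from the right boundary midpoint, that of Umodl1 12.1 kb from the left, and that of Rtp2 44.9 kb from the left and 50.1 kb from the right.

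**Figure D5:**
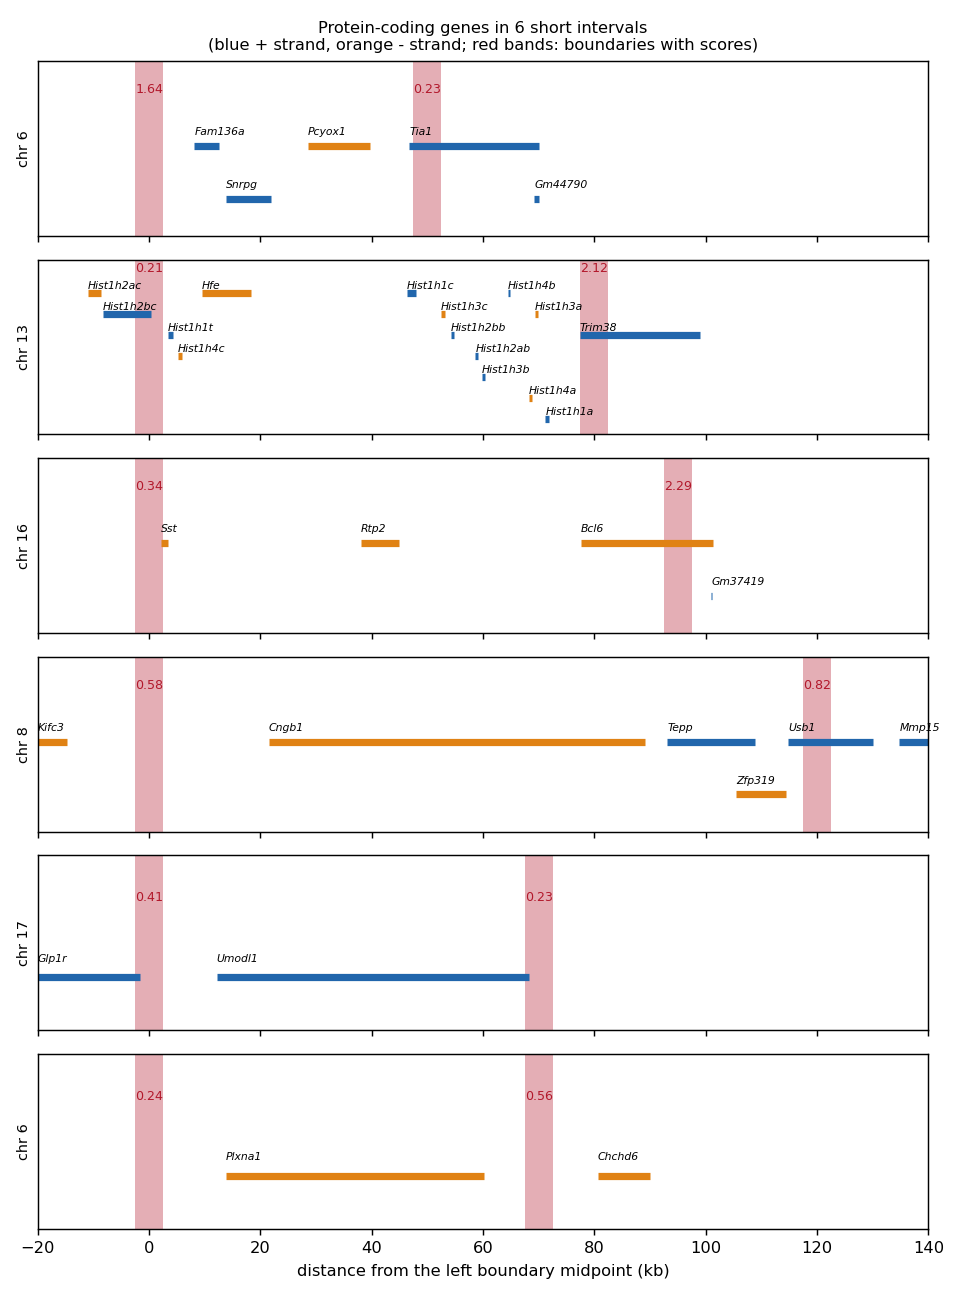
Protein-coding genes (blue plus strand, orange minus strand) and boundaries (red bands with their scores) in 6 short intervals, drawn to scale as distance in kb from the left boundary midpoint. From top to bottom the panels show the 50 kb interval of Tia1, the histone interval with 13 starts, and the intervals of Rtp2, Cngb1, Umodl1 and Plxna1, of which Umodl1 fills 80.1% and Plxna1 66.2%.

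Other cell classes of the epithelium gave small counts. Of 14 progenitor and immature neuron genes, 2 started in short intervals, Gng8, a G-protein gamma subunit, in chr7:16802501-16922500 (0.486 and 0.544) and Neurog1, a neurogenic transcription factor, in chr13:56182501-56282500 (0.734 and 0.234). Of 18 non-neuronal epithelial genes, the keratin genes Krt8 and Krt18 shared chr15:101977501-102077500 (0.615 and 1.22), with Eif4b. Of 20 genome architecture genes found on autosomes under the searched symbols, 4 started in short intervals. Nipbl, the cohesin loader, lies in chr15:8362501-8452500 (0.685 and 0.398) and Pds5b, a cohesin regulator, in chr5:150667501-150762500 (0.224 and 0.690). Cbx1, a heterochromatin protein, lies in chr11:96742501-96862500 (1.67 and 0.249) and Lmnb2, a nuclear lamin, in chr10:80897501-80992500 (0.437 and 0.220). With lists of this size the counting intervals are wide, from 5.73 to 43.7% for the architecture genes.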

How the data were processed

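The authors called boundaries on 1 contact matrix of both replicates combined, on GRCm38, per the series design text and the submitters' processing notes. The deposited list gives each boundary 5 kb, a class and a score. What computes the score, with which caller, window and aligner, is not given in the sources used here. Scores were compared only within this list. Contact matrices and signal tracks were not used here.

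Intervals ran from midpoint to midpoint. Gene starts came from GENCODE release M21, transfer RNA genes and sequence from RefSeq GRCm38, and repeats are its soft-masked bases. Tiles were 21705 consecutive 110 kb autosomal windows. Confidence ranges were exact (Clopper-Pearson, Poisson, or order statistics for medians, 95%). Python 3.11.15, pandas 2.3.3, numpy 2.4.6 and scipy 1.17.1 were used, and the counting code was tested on simulated data. Alternatives varied the spacing limit, chromosomes, annotation, flank class, and distance limits.

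Members and gene lists were chosen with earlier results of these data known. The genes named are those of the 10 shortest intervals, of the 8 with most coding starts, of the 8 with the highest lower score, of the 3 longest runs, of the 8 longest genes enclosing an interval, of the 8 genes filling most of one, and of the fixed lists (up to 6 where a list had 60 or more members); the interval of the highest score, further receptor genes, genes named as left out of a list and co-resident genes were chosen after their values were seen. Some intervals and genes that this rule takes in are not reported here.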

Additional observations from a re-analysis of the deposited data

How the results depend on the processing

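Across 16 alternative settings and 12 results, 47 of 76 recomputed values stayed within the main value's counting interval, or 1.5 times for counts and length, and 29 moved. The coding density ratio stayed above 1 in every alternative run. With a spacing limit of 100 kb there were 116 short intervals on 0.434% of the length, with 28.7 coding starts per Mb, a ratio of 3.11, a coding start in 86.2%, 2.59% inside 1 coding gene, 51.6% of CTCF matches pointing inward and 3.45% in runs. With 150 kb there were 1018 on 5.42% of the length, with 18 starts per Mb, a ratio of 2.05, both flanks Strong in 15.0%, a median lower score of 0.286 and 30.2% in runs. Taking only Strong boundaries left 22 short intervals on 0.100% of the length, with 0% in runs. Genes of all biotypes gave 40.1 starts per Mb, a ratio of 1.83 and a start in 90.7%, and starts of all coding transcripts gave 36.5 per Mb. Short intervals with both flanks Strong had 33.6 starts per Mb, a ratio of 3.70, a coding start in 100% and a CTCF match at both flanks in 18.2%. That share was 5.10% within 5 kb and 23.8% within 25 kb. Requiring scores of at least 0.7 on both flanks left 0.850%. These moves follow from which intervals, genes or distances each setting takes in. Including chromosome X or leaving out chromosome 11 moved no result. No paired analysis was possible because the list pools both replicates. Depth per boundary is unknown, so the call of single boundaries, which fixes every spacing, could not be checked.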

Other observations

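Small RNA genes in short intervals were counted as well. The 29 transfer RNA genes were 0.775 per Mb (exact 95% Poisson range 0.519 to 1.11) against 0.170 per Mb (0.152 to 0.189) in intervals over 120 kb and up to 1 Mb. They lay in 10 intervals, and 16 of the 29 in 1 of them, the interval of Per1 and Vamp2 on chromosome 11, chr11:69037501-69132500, with 13 elsewhere. Genes of a tandem array are not independent, so the counting interval is too narrow for them. MicroRNA genes, whose products repress messenger RNAs, had 1.63 starts per Mb (1.25 to 2.09) against 0.898, and small nucleolar RNA genes, whose products guide ribosomal RNA modification, 1.12 (0.809 to 1.52) against 0.626. Long non-coding RNA genes had 6.25 starts per Mb (5.48 to 7.11) against 4.18.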
